A study of Mus musculus with 12 samples.

Results

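Lymphoid and blood cell genes were examined for promoter methylation in mouse colon epithelium. The 7 genes were chosen by symbol, with earlier results of these data known. They are the Ikaros family members Ikzf1, Ikzf2 and Ikzf3 and the core binding factor genes Runx1 and Runx3. The others are the coronin gene Coro1a and the tetraspanin gene Cd37. Of the 7 genes, 6 are among the 12098 genes listed in at least 1 of 12 libraries, and Runx3 is not analysed here. All mice were C57BL/6 on chow, and their colon epithelial cells were isolated for DNA. The 3 induced mice were given doxycycline at 0.5 g/l in their water for 3 months, with fresh doxycycline water every 3 days, to raise the DNA methyltransferase Dnmt3b, and the 3 control mice had regular water. From each mouse came a library of short (40 to 120 nt) and one of long (120 to 220 nt) MspI fragments for reduced representation bisulfite sequencing, a method that reads methylation at CpGs near CCGG sites. Libraries of the 2 fractions with the same group and number in their titles are taken as the same mouse, since the study split each mouse and the labels give no other identifier. The promoter that drives the induced Dnmt3b, the genotype of the controls, and the age and sex of the mice were not found in the labels. Doxycycline and Dnmt3b induction cannot be told apart in these groups.

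Levels are mean CpG methylation per gene, in percent, averaged by the authors over the gene's RefSeq promoters. Short-fragment libraries listed 10358 to 10838 genes and long-fragment libraries 7278 to 8108, and read depth is unknown. Over genes with a value in all 6 libraries of a fraction, mean levels of control libraries were 3.81% to 4.39% (short) and 4.78% to 5.46% (long), and those of induced libraries 16.3% to 18.4% and 18.3% to 21.2%. A level between 0% and 100% does not tell whether part of the cells are fully methylated or all cells partly methylated.

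The Ikaros family encodes zinc finger transcription factors that bind DNA and recruit chromatin complexes during lymphocyte development. Ikzf1 (Ikaros) acts from early progenitors on, Ikzf2 (Helios) is known from regulatory T cells, and Ikzf3 (Aiolos) from maturing B cells. Runx1 is the DNA-binding subunit of core binding factor and is needed for the first blood stem cells of the embryo, and its relative Runx3 acts in cytotoxic T cells. Coro1a encodes an actin-binding protein of leukocytes and Cd37 a membrane protein of mature B cells. Dnmt3b places methyl groups on unmethylated CpGs, and CpG-rich promoters mostly stay unmethylated in normal tissue even where the gene is silent.

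Start regions of 4 members are shown to let CpG density be set beside the levels. The windows run from 250 bases before to 50 after a RefSeq transcription start (build GRCm38.p6), and 5 of the 7 genes have one in the table used. Where a gene has more than 1, the window with most CpGs is printed. Capitals mark CCGG, the palindromic site at which MspI cuts.

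Ikzf1, chr11:11685675-11685974 (+ strand): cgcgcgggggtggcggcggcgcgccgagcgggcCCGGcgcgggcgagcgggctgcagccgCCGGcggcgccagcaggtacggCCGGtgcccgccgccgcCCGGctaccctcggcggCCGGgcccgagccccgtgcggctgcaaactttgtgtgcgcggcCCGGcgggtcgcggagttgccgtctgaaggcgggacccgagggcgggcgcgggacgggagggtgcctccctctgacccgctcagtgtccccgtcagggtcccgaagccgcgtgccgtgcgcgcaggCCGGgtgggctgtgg
Runx1, chr16:92697280-92697579 (- strand): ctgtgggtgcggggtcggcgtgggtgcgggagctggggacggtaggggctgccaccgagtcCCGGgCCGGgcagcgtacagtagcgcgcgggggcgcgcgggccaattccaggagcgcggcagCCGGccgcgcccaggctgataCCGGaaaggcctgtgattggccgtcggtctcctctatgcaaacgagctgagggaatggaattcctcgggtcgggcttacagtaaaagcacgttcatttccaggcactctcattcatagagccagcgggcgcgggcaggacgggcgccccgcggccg
Coro1a, chr7:126704767-126705066 (- strand): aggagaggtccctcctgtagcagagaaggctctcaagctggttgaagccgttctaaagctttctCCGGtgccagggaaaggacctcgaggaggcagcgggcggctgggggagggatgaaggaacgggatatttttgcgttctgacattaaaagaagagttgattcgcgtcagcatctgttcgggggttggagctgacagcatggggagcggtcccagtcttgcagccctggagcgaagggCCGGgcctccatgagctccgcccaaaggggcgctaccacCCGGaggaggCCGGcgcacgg
Cd37, chr7:45238790-45239089 (- strand): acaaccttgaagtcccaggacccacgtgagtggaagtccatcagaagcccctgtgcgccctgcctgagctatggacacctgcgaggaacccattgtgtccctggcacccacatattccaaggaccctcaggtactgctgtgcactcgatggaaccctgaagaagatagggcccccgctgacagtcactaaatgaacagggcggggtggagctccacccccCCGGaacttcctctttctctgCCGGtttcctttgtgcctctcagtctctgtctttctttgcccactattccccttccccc

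The Ikzf1 window holds 52 CpGs and 7 CCGG sites, and 99.4% of the 32851 windows in the table hold fewer CpGs. The Runx1 window holds 35 CpGs and 4 CCGG sites (93.05% of windows hold fewer CpGs). Coro1a has 19 CpGs and 4 CCGG sites, and Cd37 8 CpGs and 2 CCGG sites. Of all windows 52.8% hold at least 1 CCGG, and the median window holds 7 CpGs. A second window of Runx1 (chr16:92826025-92826324) and one of Ikzf1 (chr11:11689927-11690226) hold 2 CpGs each. No label or header gives the authors' build or promoter window, so which of these CpGs the levels cover is not known. The tables list 2 RefSeq promoters for each of Ikzf1 and Runx1, with identical values in every library.

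**Figure D1:**
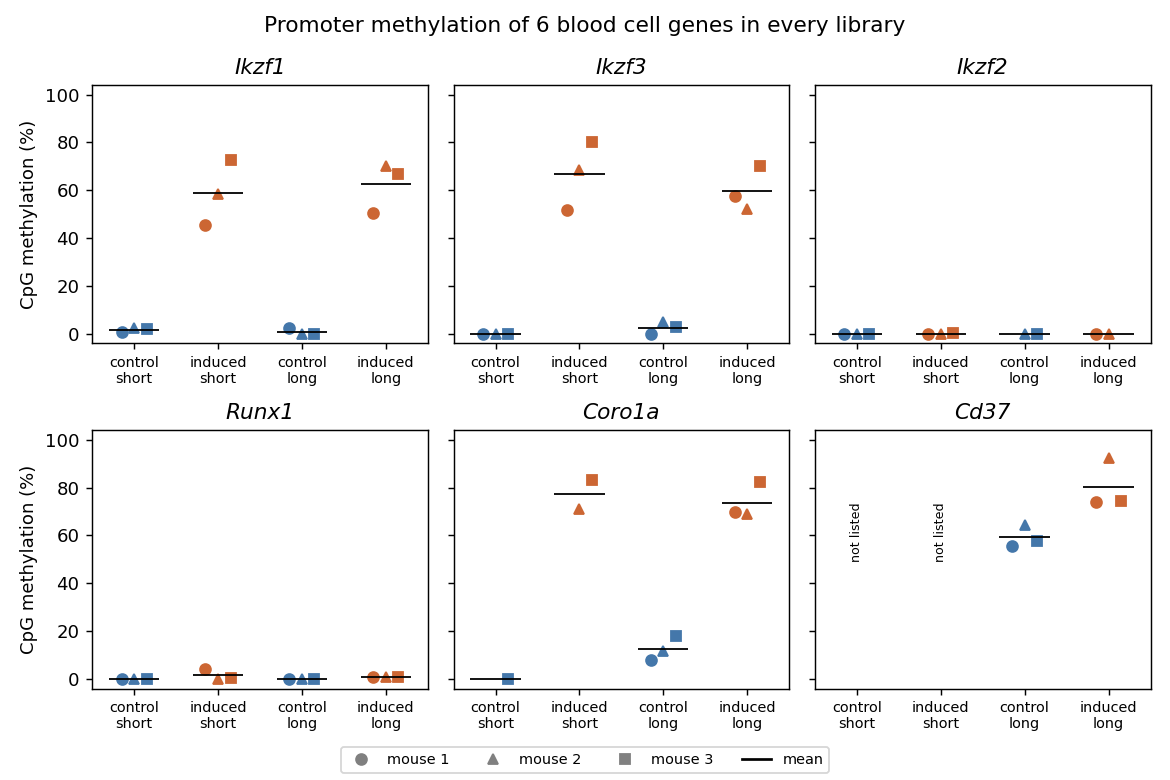
CpG methylation (y axis, percent) of 6 blood cell genes in control (blue) and induced (orange) mice, in short- and long-fragment libraries (x axis); each symbol is 1 mouse and the line is the mean of the mice listed. Ikzf1, Ikzf3 and Coro1a lie between 45.7% and 83.3% in induced mice, Ikzf2 and Runx1 stay at or under 4.06%, and Cd37 starts at 55.4% to 64.3%.

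Ikzf1 and Ikzf3 went from means under 3% in control mice to means of 58.9% to 66.8% in induced mice, in both fractions. Short-fragment levels of Ikzf1 (Gene ID 22778) were 0.96%, 2.48% and 1.97% in control mice 1, 2 and 3 and 45.7%, 58.3% and 72.6% in induced mice 1, 2 and 3. The groups did not overlap, and the change was 57.1 points (95% confidence interval 37.5 to 76.6; limma, adjusted p = 0.00504). Long-fragment levels of Ikzf1 were 2.46%, 0% and 0% in the control mice and 50.4%, 70.1% and 66.8% in the induced, a change of 61.6 points (46.0 to 77.2; limma, adjusted p = 0.00325). Induced mouse 1 was the lowest of the induced mice in both fractions.

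Ikzf3 (22780) was at 0% in all 3 control mice among short fragments and at 51.8%, 68.6% and 80% in induced mice, a change of 66.8 points (46.2 to 87.4; limma, adjusted p = 0.00355). Its long-fragment levels were 0.01%, 4.79% and 2.97% in the control mice and 57.5%, 52.05% and 70% in the induced, a change of 57.3 points (43.3 to 71.2; limma, adjusted p = 0.00298). No control value came near an induced one in either fraction. Of all genes tested, 95.8% had a smaller change than Ikzf3 among short fragments and 89.8% among long fragments. For Ikzf1 these shares were 89.7% and 92.4%. Both genes kept these calls in every alternative tried, the omission of each library included.

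Ikzf2, the family member of regulatory T cells, stayed unmethylated. Among short fragments Ikzf2 (22779) was at 0% in all 3 control mice and at 0%, 0% and 0.25% in induced mice (change 0.0833 points, -0.154 to 0.321; limma, adjusted p = 0.590). Only 4 long-fragment libraries listed it, at 0% and 0.09% in control mice 2 and 3 and 0% in induced mice 1 and 2. Its short-fragment interval lies below the lower bound of Ikzf1 and Ikzf3, whose intervals start at 37.5 and 46.2 points. With the libraries shifted to a common median difference the value of Ikzf2 was -0.312 points (limma, adjusted p = 0.0364). That setting moves every gene of a library by the same amount, so a gene at 0% can go below 0%. The negative value is no measured fall, since all 3 control mice were at 0%.

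Runx1 (12394) also stayed close to 0%. Among short fragments it was at 0% in all 3 control mice and at 4.06%, 0.13% and 0.4% in induced mice (change 1.53 points, -1.65 to 4.71; limma, adjusted p = 0.506, not past the threshold). Induced mouse 1 carried most of that mean, and the change was 0.265 points without it. Among long fragments Runx1 was at 0.06%, 0.16% and 0% in the control mice and 0.64%, 0.89% and 0.82% in the induced, a rise of 0.71 points (0.465 to 0.955; limma, adjusted p = 0.00794). That rise lies below the median change over all genes of the fraction, 0.943 points, and 0.392% of long-fraction genes passed with a rise under 2 points. Alternatives that ended the call include libraries shifted to a common median difference (0.208 points, adjusted p = 0.142) and 1 fit over both fractions (adjusted p = 0.706).

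Coro1a (12721), the actin regulator of leukocytes, rose by a similar number of points from a higher start. Long-fragment levels were 8.05%, 11.8% and 17.9% in the control mice and 69.8%, 68.9% and 82.3% in the induced, a change of 61.1 points (47.9 to 74.3; limma, adjusted p = 0.00215). The lowest induced value exceeded the highest control value by a wide gap. Among short fragments it was listed in 3 libraries, at 0% in control mouse 3, 70.95% in induced mouse 2 and 83.3% in induced mouse 3, and was not tested there.

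Cd37 (12493) was the member with the highest methylation in control mice. It was listed among long fragments, at 55.4%, 64.3% and 57.7% in the control mice and 74.1%, 92.3% and 74.5% in the induced. The groups did not overlap, but the change of 21.2 points (4.45 to 37.9) did not pass (limma, adjusted p = 0.0888). It passed when libraries were shifted to a common median difference (20.7 points; limma, adjusted p = 0.0429). The change was no larger in that setting, which took the changed genes of the fraction from 1422 to 3566 (1938 lower). Of the 150 long-fraction genes with a control mean of 40% to 80%, 18.7% rose, and their median change was 17.3 points.

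**Figure D2:**
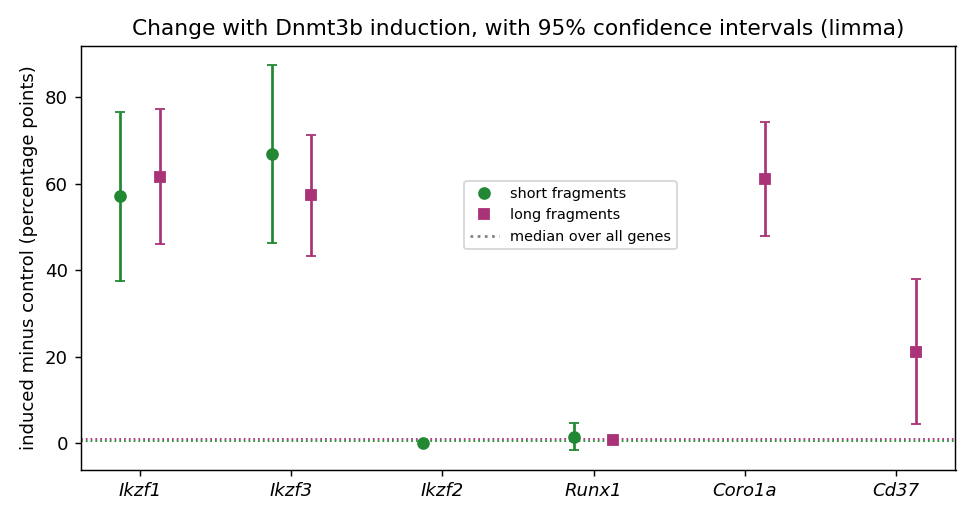
Change in CpG methylation from control to induced mice (y axis, percentage points) for 6 genes (x axis), with 95% confidence intervals from limma over 3 against 3 mice; circles are short and squares long fragments, and dotted lines give the median change over all genes tested. Ikzf1, Ikzf3 and Coro1a changed by 57.1 to 66.8 points, whereas Ikzf2 and Runx1 lie at the dotted lines.

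Of the 4 members present in all 6 short-fragment libraries 2 rose, against 27.6% of the 10027 genes tested there, and none fell (0.0798% of genes). Of the 5 present in all 6 long-fragment libraries 4 rose, Runx1 by less than 1 point, against 23.2% of 6127 genes, and none fell (0.0163%). All 3 induced values were above all 3 control values in 3 of 4 members (39.5% of all genes) and in 5 of 5 members (38.2%). The members were chosen with earlier results of these data known, so these counts are descriptions. Among genes under 10% in control mice, the change exceeded 50 points in 13.4% of 9052 short-fraction and 14.1% of 5347 long-fraction genes. Ikzf1 and Ikzf3 belong to that class in both fractions. An induced mean under 2%, as for Runx1 in both fractions and Ikzf2 among short fragments, was found in 63.6% and 59.5% of the same low genes.

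In induced mice the order of long-fragment means was Cd37 (80.3% ± 10.4), Coro1a (73.6% ± 7.48), Ikzf1 (62.4% ± 10.6), Ikzf3 (59.9% ± 9.20) and Runx1 (0.783% ± 0.129; SD, n = 3 mice each). Neighbours in this order overlapped between mice, except Ikzf3 and Runx1. Among short fragments Ikzf3 (66.8% ± 14.2) and Ikzf1 (58.9% ± 13.5) overlapped, and so did Runx1 (1.53% ± 2.20) and Ikzf2 (0.0833% ± 0.144). The wide gap lies between the gaining genes and the pair that stayed near 0%.

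Induced mice differed from each other at the gaining genes. Mouse 3 had the highest level at Ikzf3 in both fractions, at Coro1a among long fragments and at Ikzf1 among short fragments. Short-fragment Coro1a was listed only in induced mice 2 and 3, and mouse 3 was the higher. Mouse 1 had the lowest at Ikzf1 in both fractions and at Ikzf3 among short fragments. Among long fragments mouse 2 had the lowest at Ikzf3 (52.05%) and Coro1a (68.9%) and the highest at Ikzf1 (70.1%). Over all genes tested induced mouse 1 also had the lowest mean (16.3% against 16.9% and 18.4% among short, 18.3% against 18.7% and 21.2% among long fragments) and mouse 3 the highest. The part of these library means in the members' levels was not tested.

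The size fraction made no detectable difference to the members' change. For the 3 members present in all 12 libraries the change among long minus that among short fragments was 4.55 points for Ikzf1 (-16.1 to 25.2; limma interaction, adjusted p = 0.850), -9.52 for Ikzf3 (-30.2 to 11.1; adjusted p = 0.718) and -0.82 for Runx1 (-3.55 to 1.91; adjusted p = 0.786). None passed, also at an unadjusted p under 0.05, while 4.71% of 5309 genes did after adjustment. The intervals still allow large differences for Ikzf1 and Ikzf3.

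**Figure D3:**
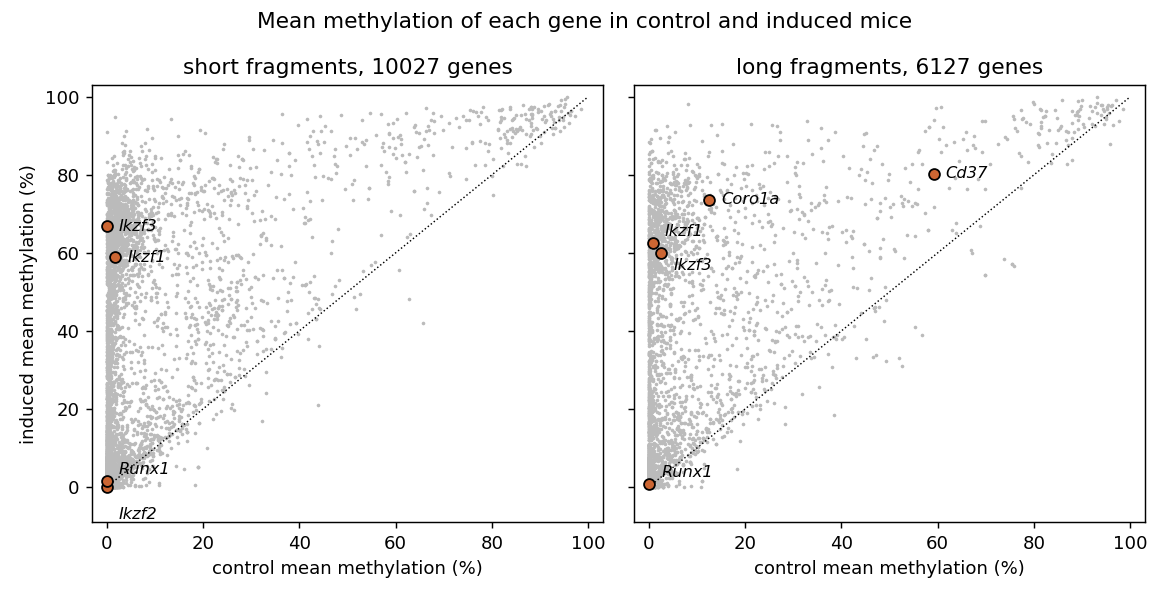
Mean CpG methylation of every gene tested in control (x axis, percent) and induced mice (y axis, percent), short fragments left and long fragments right; grey points are genes, orange points the blood cell genes, and the dotted line marks equal levels. Ikzf1, Ikzf3 and Coro1a lie in the column of genes that left the low end, and Runx1 and Ikzf2 in the lower left corner.

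Relatives of the Ikaros genes were measured in 1 fraction each. Ikzf5, a more widely used family member, was at 0.03%, 0% and 0% in the control mice and 2.13%, 1.26% and 0.05% in the induced among short fragments (limma, adjusted p = 0.278; 0.0319 without induced mouse 3). Ikzf4 (Eos), a partner of Foxp3 in regulatory T cells, was already methylated among long fragments, at 88.9%, 51.1% and 88.2% in the control mice and 98.9%, 91.35% and 85.9% in the induced (limma, adjusted p = 0.531). Of the Ikaros genes tested, 2 of 4 rose among short fragments (27.6% of all genes did) and 2 of 3 among long fragments (23.2%). In both fractions these were Ikzf1 and Ikzf3.

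Among partners of Runx1, 2 corepressor genes rose and the shared subunit did not pass. Runx1t1 (12395), known as the partner of RUNX1 in a leukaemia fusion, went from 2.40%, 3.95% and 1.98% to 66.2%, 62.1% and 69.2% among short fragments (limma, adjusted p = 0.000161). Its long-fragment levels were 3.31%, 10.5% and 2.83% in the control mice and 59.1%, 64.5% and 74.7% in the induced (adjusted p = 0.00223). Cbfa2t3 (12398), a corepressor of the same family, went from 2.77% ± 0.193 to 38.7% ± 6.85 among short fragments (SD, n = 3; limma, adjusted p = 0.00248).

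Among long fragments Cbfa2t3 went from 7.43% ± 10.9 to 47.4% ± 3.47 (SD, n = 3; limma, adjusted p = 0.0136), with control mouse 2 at 20.01% and the other control mice at 0.9% and 1.37%. That call was lost without control mouse 1 (adjusted p = 0.0578), control mouse 3 (0.0595) or induced mouse 2 (0.0530). Cbfb (12400), the subunit that stabilises every Runx protein on DNA, was at or under 0.2% in all 12 libraries and did not pass (limma, adjusted p = 0.435 and 0.787). The third corepressor, Cbfa2t2, was at 0% in all 3 control mice and at 3.90%, 0% and 0% in induced mice among short fragments.

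The Groucho genes Tle1, Tle3 and Tle4, corepressors that Runx proteins recruit, stayed at or under 1.31% in every library. Tle2, measured among short fragments, was at 0.33%, 0.03% and 0% in the control mice and 0%, 7.69% and 14.6% in the induced. None of the Tle genes passed in either fraction; Tle2 passed without induced mouse 1 (limma, adjusted p = 0.0459) and Tle3 among short fragments without induced mouse 2 (adjusted p = 0.000849). Of the 8 partner and corepressor genes of the Runx list tested among short fragments 2 rose (27.6% of all genes did). Among long fragments 2 of 6 did (23.2%).

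Genes next to the members on the chromosome did not share their levels in several cases. Neighbours are the nearest genes on either side in RefSeq order that were tested in the same fraction. Coro1a, with a long-fragment change of 61.1 points, has no other coding gene between it and Bola2 on one side and the kinase gene Mapk3 on the other. Bola2 was at 0.0733% in control and 0.200% in induced mice, and Mapk3 at 0.0367% in both. For Ikzf3 the nearest were 1810046J19Rik and Zpbp2, which had, among short fragments, control means of 0.207% and 0.0200% and induced means of 0.0333% and 0.363%. Neither neighbour of Coro1a or Ikzf3 passed (limma, adjusted p = 0.575 to 1).

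The reverse was seen at Ikzf2, which stayed unmethylated between neighbours that rose. Erbb4, a neuregulin receptor gene, went from 1.31% ± 0.716 to 46.5% ± 8.55 and Spag16, a gene of the sperm tail, from 2.78% ± 2.07 to 74.2% ± 8.47 among short fragments (SD, n = 3; limma, adjusted p = 0.00245 and 0.000718). No other coding gene lies between Ikzf2 and either of them. Differences between a member and its neighbour were not tested as such.

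Ikzf1 lay among genes that rose with it. The sperm gene Zpbp went from 6.90% ± 11.96 to 83.1% ± 6.85 and the adaptor gene Grb10 from 1.66% ± 1.53 to 70.8% ± 16.6 among short fragments (SD, n = 3; limma, adjusted p = 0.00211 and 0.00540), with 2 coding genes between each and Ikzf1. Around Runx1 the short-fragment neighbours Rcan1 (3.01% and 3.25%) and Setd4 (0% and 0.107%) did not pass. Among long fragments the chloride channel gene Clic6 next to Runx1 went from 10.7% ± 9.31 to 52.05% ± 13.3 (SD, n = 3; limma, adjusted p = 0.0355). Clic6 did not pass with any control mouse or induced mouse 2 or 3 left out (adjusted p = 0.0633 to 0.132). On the other side Cbr1 was at 0% and 0.267% and was not past the threshold (limma, adjusted p = 0.322; 0.0302 without induced mouse 3). Beside Cd37, Ccdc155 was at 7.34% and 33.3% and Trpm4 at 25.0% and 35.2%, neither past the threshold (adjusted p = 0.207 and 0.586); Ccdc155 passed without induced mouse 3 (0.0186).

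**Figure D4:**
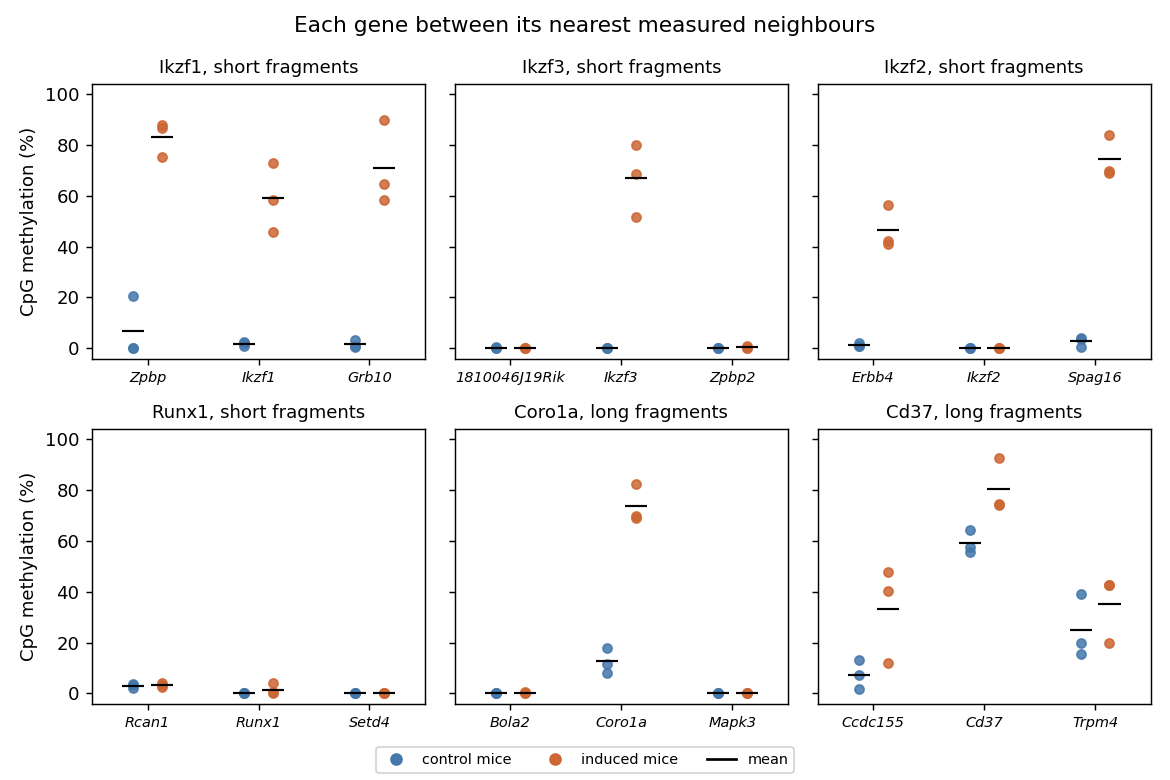
CpG methylation (y axis, percent) of each member, in the middle of a panel, and of its nearest measured gene on either side (x axis, in RefSeq order, not to scale); points are control (blue) and induced (orange) mice and lines their means. Coro1a and Ikzf3 rise between neighbours near 0%, and Ikzf2 stays at 0% to 0.25% between 2 neighbours that rise.

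The genes most like each member were found by the root mean square difference over the libraries in which it is listed. For Ikzf1 these were the neural protease gene Prss12 (2.58 points over 12 libraries) and the glutamate transporter gene Slc1a2 (3.84 points). For Ikzf3 they were the orphan receptor gene Gpr27 (3.33 points) and Mtap1b, a microtubule protein of neurons (3.53 points). For Coro1a they were Mn1 (3.91 points over 9 libraries) and the kinase gene Matk (4.26 points). For Cd37 they were Tekt4 and Rbmxl2 (7.26 and 8.66 points over 6 libraries), genes of the male germ line. Runx1 was closest to the ubiquitin ligase scaffold gene Cul2 (0.367 points) and to Ptma (0.389 points). Ikzf2 was closest to Stxbp5 and Trim37 (0.0230 and 0.0274 points over 10 libraries). For members near 0% a small distance says only that both genes stayed near 0%.

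Many other transcription factors of blood cells rose, and others stayed near 0%. Of 40 tested among short fragments 23 rose (27.6% of all genes did) and none fell. With 1 library left out 18 to 25 rose, the lowest count without control mouse 1 or 3. Over all 10027 genes 2765 rose in the main fit, and 2218 and 2212 without control mouse 1 and 3. This list, like those below, was chosen with earlier results of these data known. The median of the 40 went from 0.410% in control to 18.7% in induced mice. Irf8, Myb, Etv6 and Bcl11a were among those that did not pass, with induced means of 0.0167%, 0.410%, 0.0300% and 0.200%. Tbx21 (T-bet), the factor of type 1 helper T cells, went from 2.18%, 7.71% and 0% to 82.3%, 89.5% and 85.9% (limma, adjusted p = 0.000193). The stem cell factor Meis1 went from 3.83% ± 2.68 to 77.4% ± 7.23, the plasma cell factor Irf4 from 9.73% ± 2.75 to 77.0% ± 10.02, and the B cell factor Pax5 from 2.78% ± 1.24 to 66.3% ± 8.15 (SD, n = 3). Ets1 was at 0.320% and 20.4% and did not pass (limma, adjusted p = 0.0711; 0.00372 without induced mouse 1).

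Among long fragments 13 of 32 of these factors rose (23.2% of all genes did), and 8 without control mouse 1 or without control mouse 3. Over all 6127 genes 1421 rose in the main fit, and 900 and 895 without control mouse 1 and 3. Gfi1, a repressor of blood stem and myeloid cells, went from 0% in all 3 control mice to 73.3%, 77.95% and 89.5% in induced mice (limma, adjusted p = 0.00107). Gata2, a stem cell factor, went from 4.06% ± 3.18 to 74.7% ± 9.30 and Irf4 from 0.0767% ± 0.133 to 65.6% ± 7.28 (SD, n = 3). Meis1 went from 1.62% to 68.2% (limma, adjusted p = 0.0382) and did not pass when control mouse 1, 2 or 3 or induced mouse 2 or 3 was left out (adjusted p = 0.107 to 0.133). Nfatc1, at 0% and 43.7%, was not past the threshold (adjusted p = 0.0639; 0.00854 without induced mouse 3), whereas among short fragments it rose from 0.323% ± 0.543 to 16.2% ± 1.64 (SD, n = 3; limma, adjusted p = 0.000561).

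Surface and signalling genes of lymphoid and other blood cells were thinly covered, since 35 of those named are listed in any library. Among short fragments 12 of 16 tested rose (27.6% of all genes did), and 7 without control mouse 3. Over all 10027 genes 2765 rose in the main fit, and 2212 without control mouse 3. Rasgrp2, a Ras-family activator of platelets and T cells, went from 2.87% ± 1.03 to 66.3% ± 6.88, the B cell kinase gene Prkcb from 3.89% ± 1.23 to 67.04% ± 8.12, the T cell gene Rasgrp1 from 1.69% ± 0.762 to 62.7% ± 5.15 and the erythropoietin receptor gene Epor from 0.510% ± 0.883 to 60.3% ± 9.10 (SD, n = 3; limma, adjusted p = 0.000342 to 0.00128). Cd97 was at 3.91% and 10.4% without passing (limma, adjusted p = 0.560).

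Among long fragments 6 of 12 rose (23.2% of all genes did), and 3 without control mouse 1 or without control mouse 2. Rasgrp2 went from 0.0267% ± 0.0462 to 61.4% ± 6.64 (SD, n = 3; limma, adjusted p = 0.00112). Prkcb, the T cell kinase gene Prkcq and the integrin gene Itga4 reached 56.8%, 54.7% and 54.6%, and their calls did not hold with fewer libraries in the fit. Genes past the threshold over the whole fraction also fell, from 1422 to 905, 885 and 897 without control mouse 1, 2 and 3. With 1 library left out the changes stayed at 45.9 to 63.2 points for Prkcb, 45.5 to 58.2 for Prkcq and 38.8 to 55.8 for Itga4, while adjusted p moved across the threshold. Without control mouse 1 they were 0.0881, 0.0519 and 0.0956, and without control mouse 2 they were 0.0883, 0.0512 and 0.134. Prkcb and Itga4 also lost it without control mouse 3 (0.0886 and 0.137), and Itga4 without induced mouse 2 or 3 (0.120 and 0.0776). Ank1, at 5.88% in control and 42.8% in induced mice, was not past the threshold (limma, adjusted p = 0.127; 0.0413 without induced mouse 1), whereas among short fragments it rose from 3.26% ± 0.853 to 61.1% ± 7.12 (SD, n = 3; adjusted p = 0.000740).

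Other coronins and leukocyte actin regulators rose at some members and stayed near 0% at others. Of 9 tested among short fragments 4 rose (27.6% of all genes did): the formin gene Fmnl1, known from leukocytes, from 0.680% ± 0.0656 to 67.7% ± 11.6, Coro2b from 1.06% ± 0.658 to 48.5% ± 7.06, Coro6 from 10.1% ± 1.44 to 24.9% ± 2.56 and Coro7, listed at 0% in each control mouse, to 14.1% ± 2.78 (SD, n = 3; limma, adjusted p = 0.00120 to 0.00284). Coro1b and Coro1c, the widely expressed relatives of Coro1a, were among those that did not pass. Of 5 tested among long fragments beside Coro1a, 1 rose (23.2% of all genes did), Coro2b, from 1.28% ± 1.90 to 29.6% ± 3.04 (SD, n = 3; limma, adjusted p = 0.00155).

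Tetraspanins, the family of Cd37, were mostly near 0% in both groups. Of 16 tested among short fragments 5 rose (27.6% of all genes did), with Tspan2 from 0.263% ± 0.229 to 59.9% ± 11.9 and Tspan11 from 3.03% ± 5.25 to 51.6% ± 12.6, and Tspan33 and Tspan5 to 7.01% and 2.86% (SD, n = 3). Among long fragments 1 of 12 rose (23.2% of all genes did), Tspan2, from 1.88% ± 1.95 to 68.3% ± 14.8 (SD, n = 3; limma, adjusted p = 0.00689), and none of the other 10 beside Cd37 passed. Without induced mouse 1, 2 or 3 the count of 1 became 2, 2 or 3. Over all 6127 genes 1527, 1316 and 1376 rose in those fits. Cd37 was the tetraspanin with the highest control level in that fraction, where the other 11 had control means of at most 1.88%.

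Genes that mark other cells of the gut wall also rose, and epithelial genes mostly did not. Of stromal and smooth muscle genes 6 of 7 rose among short fragments (27.6% of all genes did). Without control mouse 1, 2 or 3 or induced mouse 2, 4 of the 7 rose. Over all 10027 genes 2218, 2292, 2212 and 2705 rose in those fits, against 2765 in the main fit. The 7 had control means of 0.473% to 22.8% and induced means of 13.5% to 82.97%. Of 4 among long fragments all rose (23.2% of all genes did), and 1 did without control mouse 1, 2 or 3 or induced mouse 2. Over all 6127 genes 900, 882, 895 and 1316 rose in those fits, against 1421 in the main fit. Of endothelial genes 3 of 4 and 1 of 1 rose. Of colon epithelium genes 1 of 10 rose among short fragments, Cldn4 from 13.7% ± 8.54 to 64.2% ± 13.6 (SD, n = 3; limma, adjusted p = 0.0138), and none without control mouse 1 or 3 (0.0537 and 0.0540). Of 11 among long fragments none passed, and 1 did without control mouse 3. Median induced levels of the epithelial genes were 0.162% and 0.0567%. These levels are promoter methylation and do not measure how many cells of a type the samples held.

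**Figure D5:**
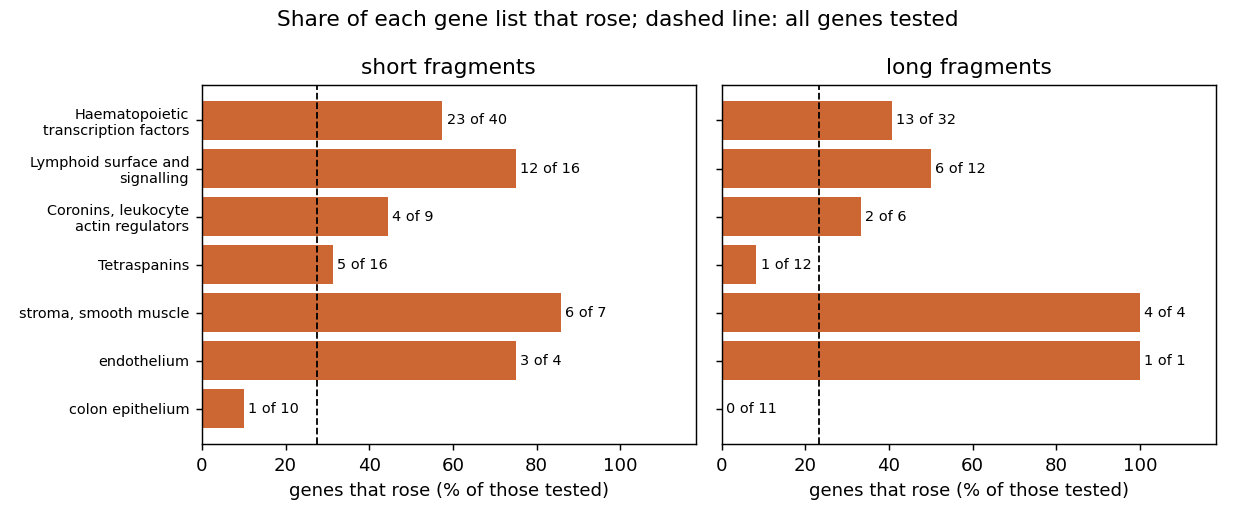
Share of each gene list that rose in induced mice (x axis, percent of the genes tested, limma adjusted p under 0.05), short fragments left and long fragments right; labels give the counts, the dashed line is the share over all genes tested, and Coro1a and Cd37 are counted in their families. Blood cell transcription factors (23 of 40 and 13 of 32) lie above the line and colon epithelium genes (1 of 10 and 0 of 11) below it. The lists were chosen with earlier results of these data known.

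CpG-rich start windows belonged both to a member that rose and to one that stayed near 0%. Both Ikzf1 and Runx1 have a start window with more than 20 CpGs, and their induced short-fragment means were 58.9% and 1.53%. Over genes with a window and a control mean under 10%, 22.7% of the 5102 with 20 or more CpGs rose among short fragments and 30.6% of the 2100 with fewer. Among long fragments these shares were 18.7% of 3128 and 27.6% of 1074. The limit of 20 CpGs was chosen after the data were seen, and the shares are descriptions.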

How the data were processed

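Reduced representation bisulfite libraries of 6 mice, 2 per mouse, were compared. The authors deposited 1 table per library, which holds (per the file headers) a methylation fraction from 0 to 1, averaged over CpGs, for each gene and RefSeq promoter. The sources used here give neither aligner nor build, promoter window, coverage filter or bisulfite conversion rate, and no coverage minimum could be set. Unconverted cytosine and hydroxymethylcytosine also read as methylation. Fractions were turned into percent. Genes in all 6 libraries of a fraction (10027 short, 6127 long) were fitted with limma 3.58.1 in R 4.3.3 (lmFit and eBayes, control against induced), with Benjamini-Hochberg adjustment over all of them and a threshold of 0.05. Unless another fit is named, each p and adjusted p in the text is from this limma fit. "Rose" means past that threshold. The difference between fractions was an interaction in 1 fit over 5309 genes with mouse as random block (correlation 0.0674). With 3 against 3 mice no exact permutation p falls below 0.10. Of the gene IDs, 12076 of 12098 are in a RefSeq gene table (GRCm38.p6), used for gene order. List genes were matched by the authors' symbol first and by the RefSeq symbol otherwise. The blood cell factor Tcf3 was matched in this way to Gene ID 21415, whereas RefSeq gives 21423 for that symbol. By its Gene ID that list entry is another gene than the RefSeq Tcf3, and it was kept in the list. Promoter windows are RefSeq's.

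The members and lists were chosen with earlier results of these data known. Named genes are the members and every measured gene in the Ikaros and Runx lists. From each other list they are up to 4 genes that passed with the largest differences and the largest that did not. The nearest tested neighbours and the 2 genes closest in level to each member are also named. Some genes the rule names are summarised by counts. Further genes are named outside the rule as examples, among them Irf8, Myb, Etv6, Bcl11a, Coro1b and Coro1c, which did not pass. Alternatives were a logit scale, a looser presence filter, promoter rows, another variance prior, shifted libraries, a replicate block, 1 joint fit, single copies of identical genes and each library left out. Python 3.11.15 with numpy 2.4.6, pandas 2.3.3 and matplotlib 3.10.9 was used for summaries and figures.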

Additional observations from a re-analysis of the deposited data

How the results depend on the processing

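The calls of Ikzf1 and Ikzf3 in both fractions and of Coro1a among long fragments held in every alternative run, with changes of 50.2 to 63.7 points (Ikzf1, short), 57.8 to 67.6 (Ikzf1, long), 60.2 to 74.3 (Ikzf3, short), 52.2 to 61.2 (Ikzf3, long) and 56.8 to 63.7 (Coro1a) on the percent scale. The count of changed genes was 2773 among short and 1422 among long fragments. Shifting libraries to a common median difference gave 5212 (2844 higher, 2368 lower) and 3566 (1628 higher, 1938 lower) and turned Ikzf2 to -0.312 points. A joint fit over the 5309 genes in all 12 libraries gave 1575 genes among short fragments, and 2 members in place of 4 passed among long fragments; Coro1a and Cd37 are not in it, and Runx1 lost its call. Leaving out 1 library gave 2227 to 3029 genes among short and 885 to 1528 among long fragments (905, 885 and 897 without control mouse 1, 2 and 3). The interaction called 250 genes, and 125 to 441 with 1 mouse left out (131, 125 and 158 without control mouse 1, 2 and 3; 441, 392 and 420 without induced mouse 1, 2 and 3). The interaction of Runx1 ranged from -1.57 points without induced mouse 2 to 0.517 without induced mouse 1 (adjusted p = 0.0906 for the latter). In those fits no member's difference between fractions passed.

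With the replicate number as a block the counts were 2114 among short and 652 among long fragments, and Runx1 lost its long-fragment call (adjusted p = 0.0589); no other member's call changed under the replicate block. The labels do not say whether the numbers pair control with induced mice. Same-numbered libraries had correlations of deviations of 0.0736, 0.00398 and -0.0499 (short) and 0.00102, 0.0366 and 0.0247 (long). Own-number correlations were not the highest for every library, but they were for each induced library among long fragments. With so few libraries these correlations cannot decide whether the numbers mark a pairing. With Ikzf2 admitted by the looser filter its long-fragment change was -0.045 points (adjusted p = 0.725). Among lists, shifted libraries added lower calls: 5 of 40 and 5 of 32 blood cell transcription factors, 1 of 12 long-fragment surface genes, 2 of 9 and 3 of 6 coronins and actin regulators, 1 of 16 and 1 of 12 tetraspanins, 1 of 9 and 3 of 7 genes of the Runx list and 2 of 10 and 4 of 11 epithelial genes. The block left 6 of 32 transcription factors, 1 of 7 genes of the Runx list, 3 of 12 surface genes, 0 of 4 stromal genes and 0 of 12 tetraspanins among long fragments. Shifting moves every gene of a library by the same amount, so a gene near 0% can be called lower without a measured fall. How many of the lower calls are of that kind was not counted. The cause of the losses under the block was not tested. Read depth is unknown, so how far counting error limits any level cannot be given.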
